A study of Mus musculus with 5 samples.

Results

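Prrx1 and 8 other transcription factors of mesenchyme (Prrx2, Twist1, Twist2, Alx4, Tcf21, Tbx15, En1 and Osr2) were followed across the cells of mouse ventral skin. They were taken by gene symbol, and all 9 are among the 31053 genes of the deposited matrices. Single-cell RNA sequencing of C57BL/6J ventral skin, taken on postnatal day 28, used 10x 3' v2 chemistry, in which each captured transcript carries a unique molecular identifier (UMI). The WT group consisted of 2 libraries from wild-type mice. The Ikkb_cKO group consisted of 3 libraries from Prx1Cre+ mice with floxed Ikkb alleles (Ikkb f/f). Each library pooled 2 mice, so the spread between libraries is one between pools. The labels name no Cre and no floxed allele for the WT mice, so effects of the Cre transgene and of the deletion cannot be told apart. Cells came from digested skin, sorted free of debris, dead cells and aggregates, and no lineage marker was used.

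Prrx1 encodes a paired-related homeodomain protein of limb, trunk and facial mesenchyme, and Prx1Cre uses an enhancer of this gene that is active in embryonic limb and ventral body wall mesenchyme. A cell whose ancestor expressed the driver carries the recombined allele for life, so Prrx1 mRNA at 4 weeks shows where the gene is active now, not which cells were recombined. The members are mostly known from embryonic patterning: Prrx2 is the paralogue of Prrx1, Twist1 and Twist2 are basic helix-loop-helix factors that bind E-boxes and keep mesenchyme undifferentiated, and Alx4 is an aristaless-type homeodomain factor. Tcf21 and Osr2 act in mesenchyme around organs, joints and palate, Tbx15 is a T-box factor of dorsoventral dermal patterning and muscle, and En1 marks a lineage of scar-forming dorsal dermal fibroblasts and ventral limb ectoderm.

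The genes lie apart in the genome (GRCm38, the build named mm10 in the submitters' notes). Prrx1 occupies chr1:163245119-163313710 on the minus strand, Twist2 chr1:91801461-91848028 and En1 chr1:120602418-120607992 on the plus strand of the same chromosome. Prrx2 lies at chr2:30834972-30881251 and Alx4 at chr2:93642384-93681339, both on the plus strand. Twist1 is at chr12:33957671-33959829, Tbx15 at chr3:99240381-99354259 and Osr2 at chr15:35296098-35303305, all on the plus strand, and Tcf21 is at chr10:22817281-22820174 on the minus strand. Transcripts of Prrx1 and Prrx2 shared 0 words of 50 bases, of 11104 and 1909 in each, and those of Twist1 and Twist2 also shared 0, of 1579 and 3125. Several members overlap other counted genes, and whether the counting used strand is not given in the sources used here. In fibroblast-like cells, the antisense genes over Prrx1 and Tbx15 (Gm20471 and Gm43120) had 0 UMIs, while Gm26523, a noncoding gene on the strand of Prrx1, had 1.35 CPM in WT and 7.19 CPM in Ikkb_cKO. Ext2, a protein-coding gene that overlaps Alx4 on the other strand, had 59.2 and 43.4 CPM.

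The 300-base promoter windows of the RefSeq table for GRCm38.p6 hold 6 of the 9 members, and the 250 bases before the start were searched on both strands. The upstream bases outside any annotated exon are shown for Prrx1 and En1, which were both higher in Ikkb_cKO and differ in the motifs they hold. Capitals mark the homeodomain core TAAT in the first and the E-box CANNTG in the second, 5′ to 3′ on the gene's strand.
Prrx1 (chr1:163313711-163313900, minus strand, 190 bases): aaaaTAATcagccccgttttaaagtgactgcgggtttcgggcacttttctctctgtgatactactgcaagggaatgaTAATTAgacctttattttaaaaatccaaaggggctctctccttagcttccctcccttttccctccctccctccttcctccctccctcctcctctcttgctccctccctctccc
En1 (chr1:120602237-120602417, plus strand, 181 bases): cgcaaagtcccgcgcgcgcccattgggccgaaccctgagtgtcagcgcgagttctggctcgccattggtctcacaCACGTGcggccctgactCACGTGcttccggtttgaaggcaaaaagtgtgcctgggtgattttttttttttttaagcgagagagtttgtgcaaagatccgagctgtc
The stretch before Prrx1 held 3 matches of TAAT, of which 2 overlap in 1 TAATTA palindrome, and no E-box. The stretch before En1 held 2 E-boxes and no TAAT. Among 32851 promoters of 250 bases, 54.9% held TAAT, 4.84% TAATTA and 66.2% an E-box. Prrx2 and Twist2 had GC-rich upstream bases, 70.0% and 68.8% GC against a median of 52.4% over all promoters, and Prrx1 had 47.6%. Both GC-rich windows lie wholly within annotated exons, and that of Prrx2 starts inside the gene span given above, so neither is printed. The kappa B consensus of NF-kB was matched in 0 of the 6 upstream windows and in 3.90% of all, and a match or its absence describes these letters alone.

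After filtering, 10393 of 11084 barcodes remained, in 32 clusters, of which 31 were named from marker genes. The 9 members and the related transcription factors took no part in the clustering. Fibroblast-like cells formed 11 clusters with 5570 cells, of which WT libraries 1 and 2 gave 1778 and 1903. Ikkb_cKO libraries 1, 2 and 3 gave 527, 493 and 869. Their median UMI count per cell was 4804 and 5261 in WT and 1556, 1771 and 2481 in Ikkb_cKO. Their median mitochondrial share of UMIs was 2.09% and 2.13% in WT and 3.49%, 3.23% and 3.42% in Ikkb_cKO, without overlap, and its part in the results was not tested. Ikkb_cKO libraries 1 and 2 resembled each other more than library 3, with a chi-square per degree of freedom over genes of 1.53 between them and of 14.2 and 14.9 against library 3. The 2 WT libraries gave 4.82. Pairs of libraries shared between 0 and 17 cell barcodes. Ikbkb, the targeted gene, had 14.5 and 18.3 normalised CPM in WT and 15.7, 19.9 and 15.6 in Ikkb_cKO fibroblast-like cells. Its 3' tags do not report on the floxed exons, so this checks neither label nor deletion.

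Among the classes of WT skin, Prrx1 was highest in fibroblast-like and mural-like cells. Levels here are plain CPM, a gene's UMIs in the summed cells scaled to a common total, and they are compared between classes for 1 gene at a time. Prrx1 stood at 153 and 150 CPM in the fibroblast-like cells of the 2 WT libraries, from 1578 and 1777 UMIs. In mural-like cells, the contractile cells around vessels, it stood at 130 and 114 CPM, from 15 UMIs in each library, and the exact 95% interval over both ran from 82.2 to 174 CPM. These intervals cover counting error only, and the mural interval includes the fibroblast-like level. Schwann-like cells, the glia of skin nerves, had 56.5 and 55.4 CPM from 3 UMIs each, and endothelial-like cells 36.5 and 14 CPM. Skeletal muscle-like cells had 17.1 and 18.2 CPM, and myeloid-like cells a mean of 1.63 ± 0.13 CPM (SD, n = 2). Keratinocyte-like, lymphocyte-like, B or plasma-like and mast-like cells of WT had 0 UMIs of Prrx1. For the 242 lymphocyte-like cells, with 644739 UMIs, a count of 0 allows up to 4.65 CPM (3 counts of that total). The order from fibroblast-like through mural-like and Schwann-like to endothelial-like cells was the same in both libraries. Neighbours in it were not separated beyond counting error: the pooled Schwann-like interval of 20.5 to 122 CPM met that of mural-like cells, and lay below the fibroblast-like interval of 146 to 157.

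RNA from 1 source keeps its genes in 1 ratio, so the summed level of 15 fibroblast markers (Col1a1, Dcn and others) was measured in the same cells. In WT mural-like cells Prrx1 reached 0.804 of its fibroblast-like level, and the fibroblast markers 0.0878 of theirs. In endothelial-like cells the shares were 0.157 for Prrx1 and 0.0175 for the markers, and in skeletal muscle-like cells 0.117 and 0.0189. In Schwann-like cells they were 0.369 and 0.298, and in myeloid-like cells 0.0108 and 0.0094. Prrx1 was above the marker share in mural-like, endothelial-like and skeletal muscle-like cells, from 30, 9 and 9 UMIs, and close to it in myeloid-like cells. The marker share of skeletal muscle-like cells was 0.00255 in WT library 1 and 0.0332 in library 2. Whether Prrx1 in these classes came from RNA of other cells was not tested. In Schwann-like cells the libraries differed: Prrx1 was at 0.369 in both, and the markers were at 0.407 in WT library 1 and 0.188 in library 2. The Schwann-like value rests on 6 UMIs.

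**Figure D1:**
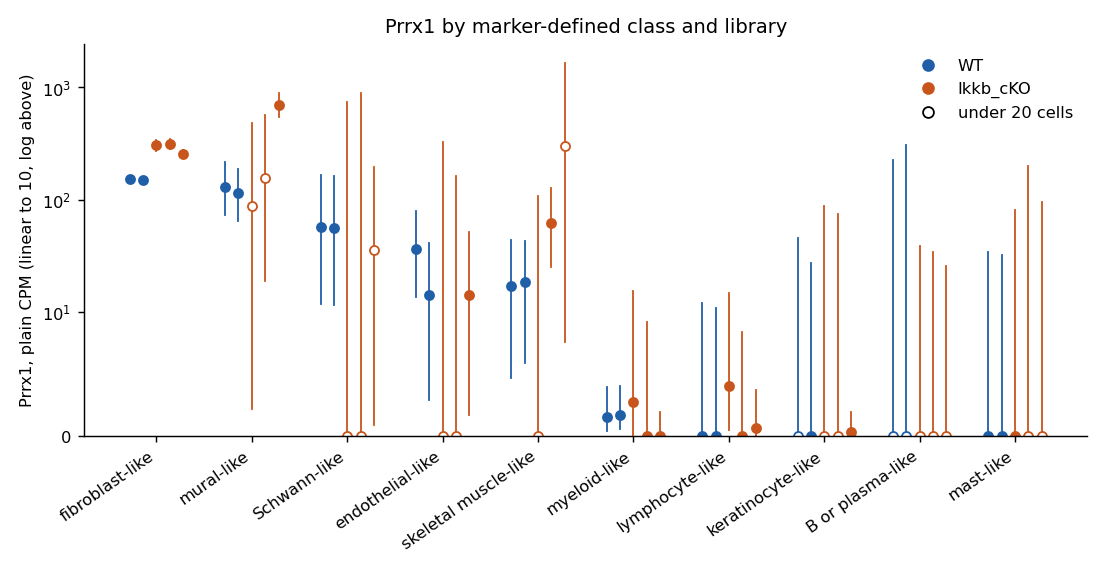
Plain CPM of Prrx1 in each marker-defined class (horizontal axis), 1 point per library with its exact 95% counting interval. Open points stand for under 20 cells, and the vertical axis is linear to 10 and logarithmic above. Fibroblast-like and mural-like cells of WT sit near each other, and lymphocyte-like, keratinocyte-like, B or plasma-like and mast-like cells sit at or near 0.

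In WT, the other members had few UMIs outside fibroblasts, with the exception of Tbx15 in muscle. In WT mural-like cells Prrx2 had 1 UMI, Twist1 5, Twist2 2, Tbx15 2, En1 3 and Osr2 2, against 30 for Prrx1, and Alx4 and Tcf21 had none. En1, low everywhere, had 12.2 CPM in mural-like cells (95% counting interval 2.51 to 35.6) and 12 in fibroblast-like cells, pooled, so its share was not below that of Prrx1. Prrx1 and Prrx2 stood at 151 and 90.5 CPM in WT fibroblast-like cells, pooled, and at 122 and 4.06 CPM in mural-like cells, with intervals of 82.2 to 174 and 0.103 to 22.6. The mural interval of Prrx1 included its fibroblast-like level, and that of Prrx2 lay below its own. Tbx15 reached 55.6 and 51.0 CPM in WT skeletal muscle-like cells, from 13 and 14 UMIs, above its 31.2 CPM in fibroblast-like cells. The pooled 95% counting intervals were 35 to 77.2 CPM in muscle and 29.0 to 33.7 in fibroblast-like cells. Acta1, the skeletal actin, stood at 95525 CPM in this class, and Pax7, a satellite cell marker, had 0 UMIs.

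When each cell was thinned to 1000 UMIs, 42.3% of WT fibroblast-like cells held at least 1 UMI of any member, against 19.4% of mural-like, 6.72% of skeletal muscle-like, 5.56% of Schwann-like and 2.56% of endothelial-like cells. The share was 0.414% in myeloid-like cells, at a median of 2614 UMIs before thinning, and 0% in 38 keratinocyte-like cells (median 5636.5 UMIs) and in the 229 lymphocyte-like cells deep enough to thin (median 2132 UMIs in all 242). In Ikkb_cKO it was 55.2% in fibroblast-like cells, 0.242% in lymphocyte-like and 0% in 307 thinned keratinocyte-like cells. Prrx1 alone was seen in 15.1% of thinned WT fibroblast-like cells and 23.6% of Ikkb_cKO ones. Without thinning the order was opposite, 51.0% and 41.7%, at a median of 5057 UMIs per cell in WT and 1985 in Ikkb_cKO.

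Within WT fibroblast-like cells, the members divided among the clusters in different ways. These values are pooled CPM over both libraries and describe clusters, without a test. Prrx1 was highest in cluster 16 (led by Cyp2f2 and Gng13) at 299 CPM, in cluster 9 (Pi16, Dpp4 and Anxa3, fascia fibroblast-like) at 233 CPM and in cluster 7 (Gm2564, Pltp and Ccl19) at 225 CPM. It was lowest in cluster 2 (Fabp4 and Cited1) at 92.8 CPM and cluster 14 (Crabp1 and Pla2g7) at 56.6 CPM. Prrx2 was highest in cluster 2 at 155 CPM, followed by cluster 0 at 122 CPM, cluster 12 at 104 CPM and cluster 14 at 96.4 CPM. It stood at 39.4 CPM in cluster 16 and was lowest in cluster 3 at 28.0 CPM. In single libraries Prrx2 had 161 and 149 CPM in cluster 2 and 37.4 and 41.9 in cluster 16, and Prrx1 had 83.9 and 100.4 in cluster 2 and 281 and 319 in cluster 16. Between clusters 2 and 16 the paralogues thus had opposite orders in both libraries.

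Alx4 followed Prrx2. It had 35.9 CPM in cluster 2, 33.1 in cluster 14, 21.5 in cycling cluster 12 and 18.6 in cluster 0 (Dkk2 and Igfbp2), and at most 1.48 CPM in clusters 3, 4, 7, 9 and 16. Of 385 UMIs of Alx4 in WT fibroblast-like cells, 245 came from cluster 2 and 103 from cluster 14. Osr2 had 376 CPM in cluster 16, 225 in cluster 4 (Thbs4 and Cilp) and 205 in cluster 9, against 39.1 to 46.5 in clusters 2, 3, 12 and 14. Twist1 was highest in cluster 0 at 189 CPM and Twist2 at 120 CPM in the same cluster, and the lowest Twist1 level was 32.5 CPM in cluster 3 (Fmo2, Vtn and Inmt). En1 stayed between 6.26 and 26.6 CPM and Tbx15 between 13.4 and 59.7 CPM over the same 9 clusters. Tcf21 had 5 UMIs in all WT fibroblast-like cells and 1 in Ikkb_cKO, so its level was not measurable at this depth.

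**Figure D2:**
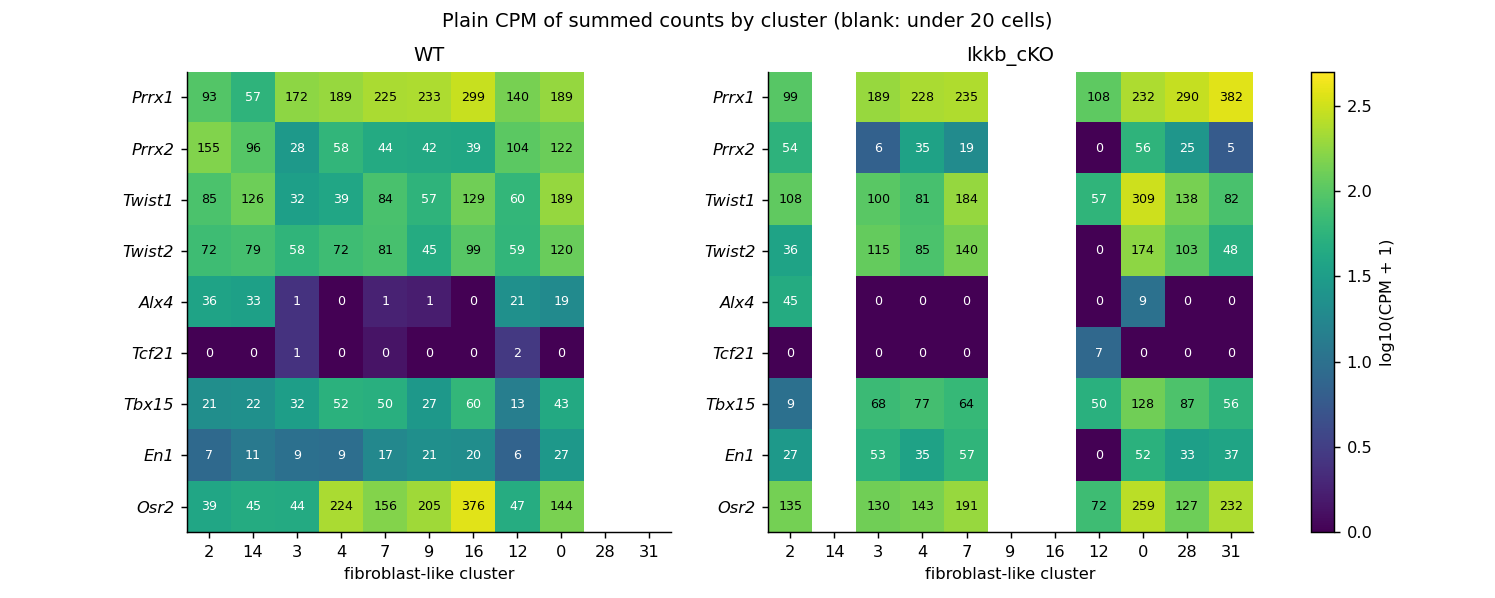
Plain CPM of the summed counts of each member (rows) in each fibroblast-like cluster (columns), WT at the left and Ikkb_cKO at the right, with colour on a log10(CPM + 1) scale. Clusters with under 20 cells in a genotype are blank. In WT, Prrx2 is highest in clusters 2, 0, 12 and 14 and Alx4 in clusters 2 and 14. Prrx1 is high in clusters 16, 9 and 7 of WT and in cluster 31 of Ikkb_cKO.

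Over the 21 clusters of all classes with at least 50 WT cells, the genes whose log2(CPM + 10) ran most like that of Prrx1 were Sspn (Pearson r = 0.983), Plac9b (0.977), Sdc2 (0.977), Rarres2 (0.976) and Ddr2 (0.976). Ddr2 encodes a collagen receptor kinase and Sdc2 a heparan sulphate proteoglycan. Over 21 clusters with at least 50 Ikkb_cKO cells, the same genes had r of 0.983, 0.981, 0.981, 0.991 and 0.975. Among the members, r with Prrx1 in WT was 0.917 for En1, 0.910 for Osr2, 0.899 for Twist1, 0.888 for Twist2, 0.864 for Tbx15, 0.805 for Prrx2 and 0.357 for Alx4. Twist1 and Twist2 had r = 0.957 with each other, and Prrx2 and Alx4 0.776. The clusters share libraries, and the contrast between fibroblast-like and other cells sets most of these values.

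Single fibroblast-like cells thinned to 1000 UMIs gave a further view of the paralogue pairs. Prrx1 and Prrx2 were both seen in 0.944% and 0.494% of cells in WT libraries 1 and 2, and the product of their separate shares was 1.05% and 0.805%. In Ikkb_cKO libraries 1, 2 and 3 the joint share was 0%, 0.785% and 0.678%, against products of 0.179%, 0.543% and 0.928%. The joint share was thus below the product in 4 of the 5 libraries. Twist1 and Twist2 were both seen in 0.767% and 0.604% of WT cells, above products of 0.510% and 0.478%, and in 0.524%, 0.262% and 2.98% of Ikkb_cKO cells, against 0.466%, 0.536% and 2.17%. The joint shares rest on between 0 and 22 cells in a library and describe the libraries, without a test.

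In fibroblast-like cells, Ikkb_cKO was compared with WT on UMI counts summed per library, with edgeR's quasi-likelihood test and Benjamini-Hochberg adjustment over 10535 genes. Of the 9 members, 8 passed the filter on low counts, 4 were higher (Prrx1, Tbx15, En1 and Osr2), 2 were lower (Prrx2 and Alx4), and Twist1 and Twist2 did not pass the threshold of 0.05. Of all genes tested, 35.4% were called, 17.3% higher and 18.0% lower, so calls were frequent. The libraries of the 2 genotypes did not overlap for 7 of the 8 members and for 60.9% of all genes. The median log2 fold change was 0.75 over the 8 members and 0.05 over all genes. Levels below are CPM normalised by TMM, and fold changes are log2 of Ikkb_cKO over WT.

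Prrx1 had 156 and 152 normalised CPM in WT and 301, 303 and 260 in Ikkb_cKO libraries 1, 2 and 3. Every Ikkb_cKO library was above both WT libraries, with a log2 fold change of 0.90 ± 0.14 (SE, edgeR adjusted p = 0.00458). Prrx2, its paralogue, moved in the other direction, from 97.1 and 87.4 in WT to 12.8, 16.4 and 34.7 in Ikkb_cKO. Its log2 fold change was -2.00 ± 0.35 (edgeR adjusted p = 0.00807), and library 3 had the highest level of the Ikkb_cKO libraries.

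Alx4 had 16.1 and 18.9 normalised CPM in WT and 2.95, 3.45 and 3.51 in Ikkb_cKO. The groups lay far apart relative to their spread (log2 fold change -2.38 ± 0.27, edgeR adjusted p = 0.00229), and the Ikkb_cKO values rest on 16 UMIs. En1 rose from 13.2 and 11.3 to 33.5, 35.4 and 44.4 (1.65 ± 0.20, edgeR adjusted p = 0.00265). Osr2 rose from 122 and 114 to 195, 200 and 192 (0.73 ± 0.13, edgeR adjusted p = 0.00683). This call was lost with every cell thinned to 1000 UMIs (0.26, edgeR adjusted p = 0.272) and without cluster 31, led by Ltc4s (0.43, edgeR adjusted p = 0.138). It was also lost without either WT library, which leaves a single WT library. So were the calls of Prrx1, Prrx2 and Tbx15, and that of En1 without WT library 2. The log2 fold change of Prrx1 was 0.90 without WT library 1 and 0.86 without WT library 2. Tbx15 rose from 31.2 and 32.2 to 55.1, 50.1 and 107 (1.2 ± 0.34, edgeR adjusted p = 0.0347), with Ikkb_cKO library 3 highest.

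The Twist genes differed mainly by 1 library. Twist1 had 80.2 and 81.2 normalised CPM in WT and 96.4, 88.9 and 220 in Ikkb_cKO (0.77 ± 0.41, edgeR adjusted p = 0.194). Twist2 had 71.4 and 72.0 in WT and 52.1, 47.5 and 148 in Ikkb_cKO (0.25 ± 0.50, edgeR adjusted p = 0.725). Ikkb_cKO libraries 1 and 2 were thus below WT for Twist2 and library 3 above it, and without library 3 its log2 fold change was -0.54 (edgeR adjusted p = 0.00256). In library 3, 43.8% of fibroblast-like UMIs came from cluster 0, the cluster with the highest Twist levels in WT, against 1.65% and 2.59% in Ikkb_cKO libraries 1 and 2 and 1.34% and 2.01% in WT. The part of this share in the Twist levels of library 3 was not tested.

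**Figure D3:**
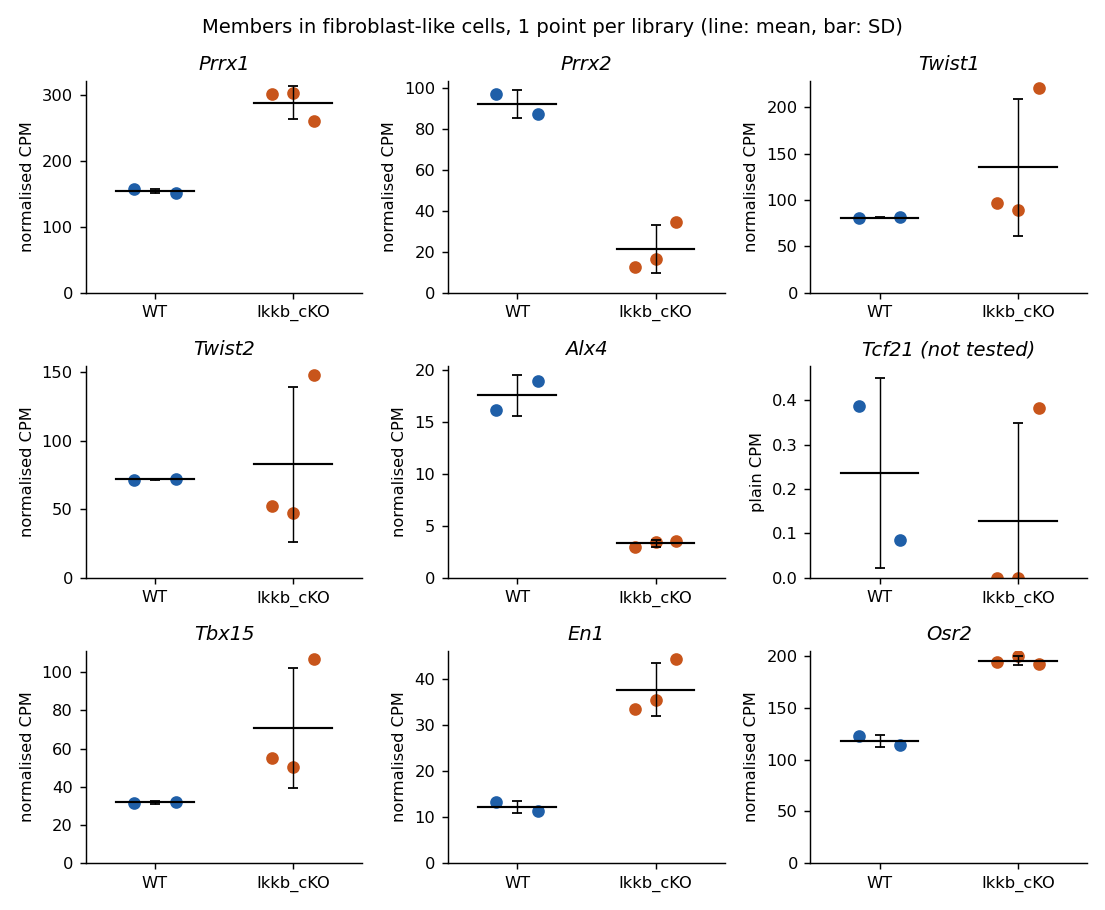
CPM of each member in fibroblast-like cells, 1 point per library, with the mean as a line and the SD as a bar (n = 2 WT and 3 Ikkb_cKO). Prrx1, Tbx15, En1 and Osr2 are higher and Prrx2 and Alx4 lower in every Ikkb_cKO library, and the Twist genes are highest in Ikkb_cKO library 3. Values are normalised by TMM except those of Tcf21, which are plain.

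Leaving out either WT library, or summing WT libraries 1 and 2 and Ikkb_cKO libraries 1 and 2, left a single WT sample. Fewer members were called in each of these fits, and fewer of all genes were called too. The log2 fold change of Alx4 was -2.51 without WT library 1 and -2.28 without WT library 2.

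The fibroblast-like clusters themselves were unequally filled. Cluster 31 (led by Ltc4s, Mrgprg and Col6a5) held 307, 285 and 81 Ikkb_cKO cells and 1 WT cell, and cluster 28 (Hk2, Hspa1b and Emb) held 70, 64 and 255 against 4 and 3 WT cells. Cluster 31 gave 54.2%, 56.5% and 8.37% of the fibroblast-like UMIs in Ikkb_cKO libraries 1, 2 and 3, and cluster 28 gave 14.2%, 10.8% and 31.1%. Cluster 2, rich in Prrx2 and Alx4, had 301 and 364 WT cells against 18, 11 and 0. For cluster 14, also rich in both genes, the numbers were 217 and 236 against 1, 3 and 2. In cluster 31, Prrx1 stood at 374, 383 and 395 CPM in the 3 Ikkb_cKO libraries, above the WT level of each of the 9 clusters that WT fills. The same cells had 3.69, 6.31 and 4.59 CPM of Prrx2, 7 UMIs in all, and 247, 259 and 115 CPM of Osr2. Cluster 28 had 290 CPM of Prrx1 and 25.2 CPM of Prrx2 over the Ikkb_cKO libraries.

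Clusters 3, 4 and 7 had at least 20 cells in every library and were tested one by one. Prrx1 was not called in any of the 3: its log2 fold change was -0.01 ± 0.28 in cluster 3 (edgeR adjusted p = 0.978), 0.20 ± 0.23 in cluster 4 (edgeR adjusted p = 0.490) and 0.06 ± 0.29 in cluster 7 (edgeR adjusted p = 0.890). In each, the genotypes overlapped, for example 182 and 183 in WT and 129, 127 and 244 normalised CPM in Ikkb_cKO for cluster 3. With the 3 clusters given equal weight, the mean Prrx1 level was 196 ± 9.64 CPM in WT (SD, n = 2) and 214 ± 27.3 in Ikkb_cKO (SD, n = 3), a difference of 0.11 ± 0.17 (SE) on the log2(CPM + 10) scale (limma adjusted p = 0.797). The class-wide rise of Prrx1 was therefore not seen inside these clusters, and the SE of each estimate allows for changes in either direction. Over all fibroblast-like cells without cluster 31, Prrx1 was still called, at 0.55 ± 0.16 (edgeR adjusted p = 0.0251).

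Twist1 was called in clusters 3 and 7 and not over the class. Over the class every Ikkb_cKO library was also above both WT libraries (0.77 ± 0.41). With the 3 clusters weighted equally Twist1 was not called (0.94 ± 0.27 on the log2(CPM + 10) scale, limma adjusted p = 0.125). In cluster 3 it had 38.7 and 30.7 normalised CPM in WT and 43.1, 84.5 and 134 in Ikkb_cKO (1.47 ± 0.42, edgeR adjusted p = 0.0300). In cluster 7 it had 85.7 and 82.7 in WT and 134, 121 and 229 in Ikkb_cKO (1.13 ± 0.33, edgeR adjusted p = 0.0262). Cluster 4 was not testable for Twist1, where WT had 43.1 and 37.1 and Ikkb_cKO 79.8, 76.8 and 80.8, without overlap. Twist2 did not pass in clusters 3 and 7 (0.87 ± 0.33 and 0.79 ± 0.33, edgeR adjusted p = 0.0702 and 0.0937), and the genotypes did not overlap there. The share of all genes without overlap inside these clusters was not computed, and it was 60.9% over the class. In cluster 3, 2 of 5 testable members were called (Twist1 and Osr2) against 26.8% of genes. In cluster 7 it was 1 of 4 (Twist1) against 31.2%, and in cluster 4 edgeR called 0 of 2 against 41.3%, with 1 at an unadjusted p under 0.05. The Twist1 call in cluster 7 was lost when any 1 of the 5 libraries was left out, and both calls in cluster 3 were lost without either WT library. Without Ikkb_cKO library 3 the Twist1 call in cluster 3 was lost as well, and without library 2 that of Osr2. In cluster 4, 1 member was called without any 1 of the Ikkb_cKO libraries: Osr2 without library 1 or 2, and En1 without library 3.

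Osr2 differed in direction between clusters. In cluster 3 it had 52.2 and 42.4 normalised CPM in WT and 86.2, 190 and 110 in Ikkb_cKO (1.44 ± 0.35, edgeR adjusted p = 0.0161). In cluster 4, where its WT level was highest of the 3, it had 226 and 239 in WT and 199, 154 and 80.8 in Ikkb_cKO (-0.72 ± 0.27, edgeR adjusted p = 0.0556). In cluster 7 the Ikkb_cKO libraries lay on both sides of WT. The difference of the genotype effects between clusters 4 and 3 was -2.26 ± 0.43 on the log2 scale (edgeR with library as a block, adjusted p = 0.0138), where 0.337% of 2373 genes were called. Between clusters 3 and 7, and 4 and 7, 1.29% and 0.925% of genes were called, and no member was, with Osr2 at adjusted p = 0.241 and 0.496 (edgeR). Prrx1 did not differ by this test in any pair (adjusted p from 0.943 to 0.989).

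**Figure D4:**
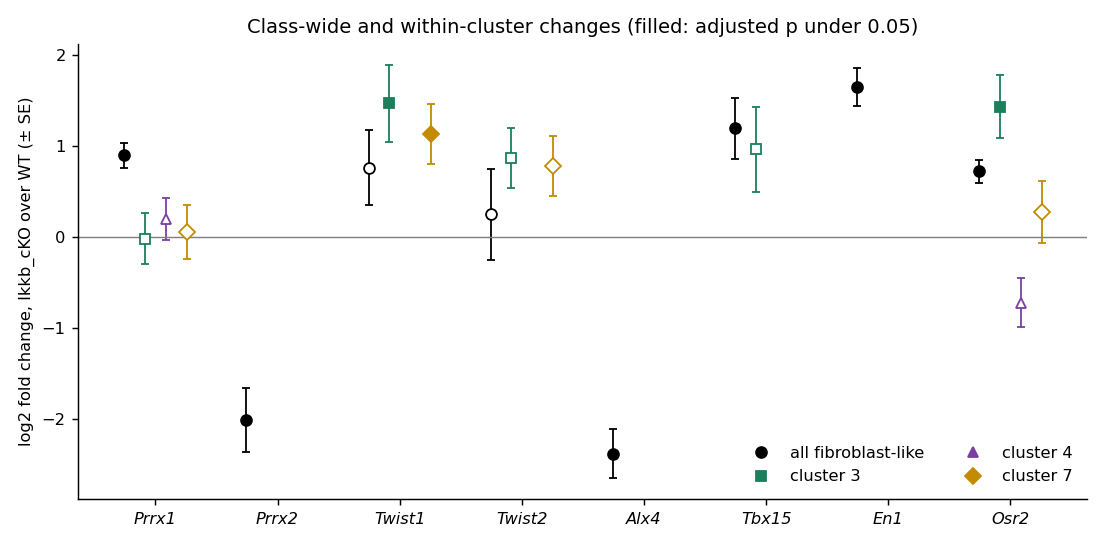
Log2 fold change of Ikkb_cKO over WT with its SE (vertical axis) for each member with a test, over all fibroblast-like cells and within clusters 3, 4 and 7. Filled symbols passed an adjusted p of 0.05. Prrx1 is called over the class and lies near 0 in the 3 clusters, and Osr2 is above 0 in cluster 3 and below 0 in cluster 4.

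Prrx2 and En1 fell below the count filter inside clusters, and their values are given mainly without a test. The pooled level of Prrx2 was lower in Ikkb_cKO in each of the 5 clusters with at least 10 cells in every library. In clusters 4 and 7 the 95% counting interval of the ratio to WT included 1, at 0.598 (0.269 to 1.16) and 0.431 (0.0875 to 1.29). In cluster 3 it had 28.0 CPM in WT and 5.91 in Ikkb_cKO, which gives 0.211 times the WT level, with a 95% counting interval from 0.0246 to 0.816. In cluster 0 it had 122 CPM in WT against 56.4, or 0.462 times (0.313 to 0.687), although Ikkb_cKO libraries 1 and 2 were at 182 and 241 CPM there from 10 and 13 cells and WT at 180 and 88.4. In cluster 2, where Prrx2 was highest in WT, the 29 Ikkb_cKO cells had 49.2 and 60.1 CPM from 6 UMIs, against 161 and 149 in WT (ratio 0.350, 0.128 to 0.764). Alx4 in those cells stood at 45.1 CPM against 35.9 in WT, from 5 UMIs (ratio 1.26, 0.405 to 2.97). A fall of Alx4 as a share of UMIs was thus not detectable in cluster 2, its main WT cluster, at this depth. These are not levels per cell, since the median UMI count of cluster 2 cells was 9831 in WT and 3605 in Ikkb_cKO. In the 5 clusters with at least 10 cells in every library, Alx4 was lower in 4 and higher in 0, for example 18.6 CPM in WT and 9.26 in Ikkb_cKO in cluster 0, and 21.5 and 0 in cluster 12. Only clusters 0 and 12 of these had more than 2 UMIs of it in WT.

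En1 was higher in every Ikkb_cKO library than in both WT libraries within clusters 3, 4 and 7. The Ikkb_cKO values in clusters 4 and 7 rest on 9 UMIs each. Over the class 60.9% of all genes had no overlap, and the share inside clusters was not computed. In cluster 3 the WT libraries had 10.1 and 8.77 normalised CPM and the Ikkb_cKO libraries 53.9, 95.1 and 24.4, from 12 and 18 UMIs. Without the filter En1 was called in cluster 3 (2.23 ± 0.60, edgeR adjusted p = 0.00665). It was not called in cluster 4 (1.60 ± 0.66, edgeR adjusted p = 0.173) or cluster 7 (1.19 ± 0.65, edgeR adjusted p = 0.426). The same fits did not call Prrx2 in clusters 3, 4 and 7 (edgeR adjusted p = 0.0591, 0.176 and 0.247). The ratios of plain CPM were 6.01 (95% counting interval 2.74 to 13.7) in cluster 3, 4.07 (1.67 to 9.01) in cluster 4 and 3.30 (1.42 to 6.87) in cluster 7. With the 3 clusters weighted equally, En1 was at 11.6 ± 1.00 CPM in WT (SD, n = 2) and 52.8 ± 26.1 in Ikkb_cKO (SD, n = 3), 1.46 ± 0.37 on the log2(CPM + 10) scale (limma adjusted p = 0.0978). In that comparison limma called 0 of 8 members, with 3 at an unadjusted p under 0.05.

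A further description set each library's cluster shares on the WT cluster levels. If every cluster that WT fills had kept its WT level, the shares of those clusters would give Prrx1 at 166, 165 and 189 CPM in Ikkb_cKO libraries 1, 2 and 3, and the measured values in those clusters were 205, 174 and 223. For Prrx2 the values were 74.2, 74.9 and 102 from shares and 28.4, 38.0 and 40.6 measured. For En1 they were 10.4, 10.8 and 22.3 from shares and 37.9, 51.6 and 45.6 measured, and for Twist1 62.8, 66.8 and 152 against 114, 103 and 272. As a ratio, Prrx1 was thus nearer to its share-based level than Prrx2, En1 or Twist1, and than Tbx15 or Osr2. This was not particular to Prrx1. For Alx4 the values were 10.67, 10.97 and 14.58 from shares and 9.479, 10.87 and 5.705 measured, from few UMIs. For Twist2 they were 70.26, 71.25 and 105.5 against 56.87, 73.39 and 168.6. In Ikkb_cKO libraries 1 and 2 both genes were about as near as Prrx1 or nearer, and in library 3 both were further. The clusters that WT fills held 31.6%, 32.8% and 60.6% of the Ikkb_cKO fibroblast-like UMIs.

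In mural-like cells, Prrx1 was higher in Ikkb_cKO library 3, at 700 CPM from 68 UMIs in 20 cells, than in its fibroblast-like cells at 256 CPM. Libraries 1 and 2 had 3 and 5 mural-like cells with 1 and 2 UMIs, so the class could not be tested over libraries. The pooled ratio to WT was 4.80 with a 95% counting interval from 3.09 to 7.63, and it rests on library 3. Those 20 cells had 7509 CPM of Mylk, 5026 of Myh11 and 2791 of Des, smooth muscle genes that stood at 1709, 2934 and 601 CPM over WT mural-like cells. Acta2 and Tagln, contractile genes of the same list, were not higher, at 12298 and 7396 CPM against 12760.5 and 7793 CPM in WT. Kcnj8 and Ndufa4l2, pericyte genes, stood at 72.1 and 124 CPM in the 20 cells and at 442 and 1002 CPM in WT. Rgs5, Cspg4, Pdgfrb and Notch3, of the same list, were also lower, at 1102, 61.8, 165 and 155 CPM against 1737, 191, 589 and 795.5 CPM. Abcc9 and Higd1b were lower too, and Mcam was higher (464 against 341 CPM). Whether the 20 cells are of the same kind as WT mural-like cells was not tested. The part of these differences within the mural-like class in the Prrx1 value was not tested. The fibroblast markers in the same cells were 0.0666 of their fibroblast-like level. All members together summed to 1164 CPM in those 20 cells, of which Prrx1 was 700, and to 183 CPM over WT mural-like cells. The higher level was thus not confined to Prrx1, and it rests on library 3 and was not tested. No member could be tested in myeloid-like or lymphocyte-like cells, the other classes with enough cells, because none passed the count filter there.

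Markers of other cell types were measured in the fibroblast-like cells beside these changes. The 14 mural markers summed to 613 and 645 CPM in WT and to 256, 274 and 609 in Ikkb_cKO, and the 13 Schwann markers to between 108 and 122 CPM in all libraries, with Sox10 and Gfra3 at 0. The 23 lymphocyte markers summed to 704 and 755 CPM in WT and 455, 485 and 1066 in Ikkb_cKO. Thy1, on this list, had 523 CPM in lymphocyte-like cells and 415 CPM in all other cells, so this sum does not measure lymphocyte RNA alone. The 16 keratinocyte markers summed to 70.3 and 74.5 CPM in WT and to 30, 57.9 and 164 in Ikkb_cKO. The 9 B or plasma markers summed to 19.2 and 22.1 CPM in WT and 87.9, 70.3 and 46.8 in Ikkb_cKO, without overlap, and the 5 erythrocyte markers to 126 CPM in Ikkb_cKO library 2 and under 1 CPM in the other libraries. Ikkb_cKO library 3 was the highest for the lymphocyte and keratinocyte lists, as it was for Twist1, Twist2 and Tbx15. Their part in the results was not tested.

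Of 113 related transcription factors in 7 lists, 74 were tested in fibroblast-like cells, 21 were higher and 3 lower, against 17.3% and 18.0% of all genes, with a median log2 fold change of 0.36 against 0.05 over all genes. The skeletogenic, tendon and matrix list had the highest median, 1.07, with 5 of 12 higher and 1 lower. With 6 to 15 tested genes a list, such counts describe the lists and are not set apart from the rate over all genes. Runx1, a runt-domain factor of blood and skeletal progenitors, had 1.78 and 3.84 normalised CPM in WT and 18.7, 18.1 and 70.2 in Ikkb_cKO (3.75 ± 0.76, edgeR adjusted p = 0.0156). Sox11, a SoxC factor of embryonic mesenchyme, rose by a log2 fold change of 3.19 ± 0.47 (edgeR adjusted p = 0.00448), and Sox9, the cartilage regulator, by 1.19 ± 0.32 (edgeR adjusted p = 0.0277). Runx2, the osteoblast regulator, was lower at 13.0 and 16.5 in WT and 6.89, 1.73 and 7.02 in Ikkb_cKO (-1.41 ± 0.39, edgeR adjusted p = 0.0320).

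The adipogenic list had 3 of 11 higher and 2 lower. Cebpb rose from 135 and 70.7 normalised CPM to 738, 538 and 614 (2.62 ± 0.31, edgeR adjusted p = 0.0028), and Klf9 had a log2 fold change of 1.14. Pparg, the regulator of fat cell differentiation, was lower at 16.9 and 17.9 against 6.89, 5.18 and 3.51 (-1.86 ± 0.29, edgeR adjusted p = 0.00509), and Cebpd was lower by a smaller step (-0.46 ± 0.15, edgeR adjusted p = 0.0494). In the list of nuclear factor I and other dermal factors 5 of 9 were higher, among them Nfia at 1.42 and Nfib at 1.33.

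Of the factors of the epithelial-mesenchymal transition, 1 of 7 was higher, near the 17.3% over all genes, and none was lower. The 1 higher was Zeb2, at 124 and 129 normalised CPM in WT and 301, 307 and 280 in Ikkb_cKO (1.23 ± 0.13, edgeR adjusted p = 0.00216). Zeb1 had 0.26 ± 0.19 (edgeR adjusted p = 0.331) and Snai2 0.13 ± 0.25 (edgeR adjusted p = 0.717). In the list of limb, body wall and dermal patterning, 1 of 15 tested genes was higher and none lower. Msx1, a homeodomain factor of limb and suture mesenchyme, had 28.7 and 30.6 in WT and 26.6, 28.5 and 7.79 in Ikkb_cKO (edgeR adjusted p = 0.330), and Lhx2 did not pass the count filter. These counts changed with the libraries used: 43 factors were called without Ikkb_cKO library 3, where edgeR called 5485 of 11708 genes. Fewer factors, and fewer of all genes, were called without either WT library, which leaves a single WT library.

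**Figure D5:**
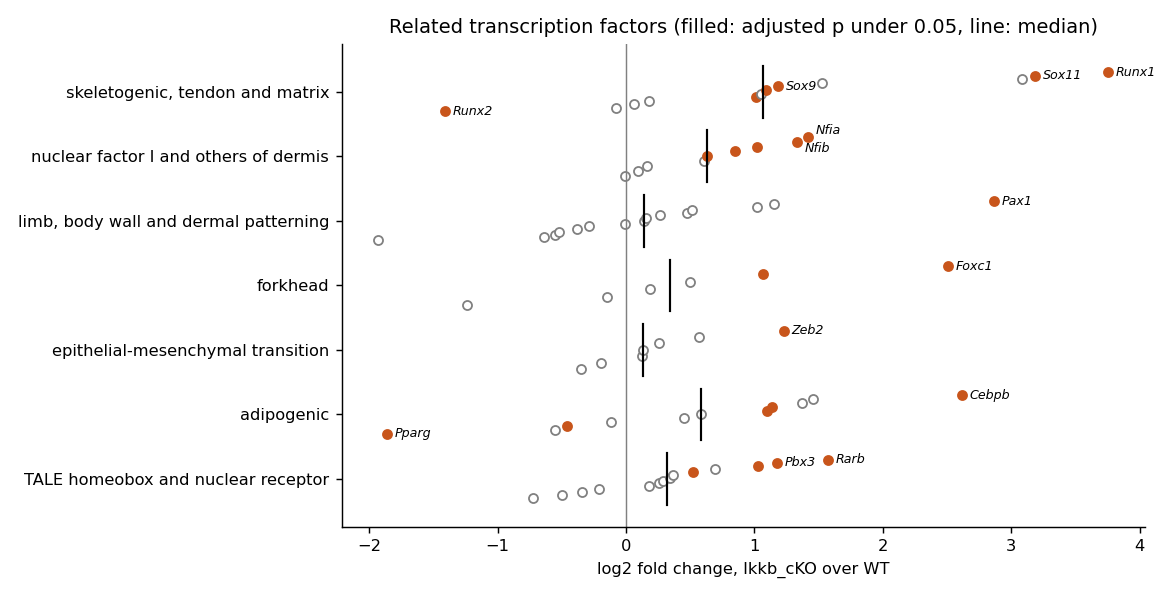
Log2 fold change of Ikkb_cKO over WT in fibroblast-like cells for the 74 tested factors (horizontal axis), grouped by list (vertical axis). Filled points passed an adjusted p of 0.05 and lines mark list medians. The skeletogenic, tendon and matrix list lies furthest to the right, with Runx1 at 3.75, and Pparg at -1.86 is the lowest called value.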

How the data were processed

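The deposited files give UMI counts, not normalised, for each gene in each barcode. The reads were processed with Cell Ranger 1.3.0 and mm10, per the submitters' processing notes, and the matrices carry software version 3.0.1, per the file headers. No source used here gives the counting settings.

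Barcodes needed 300 genes or more and no more than 10% mitochondrial UMIs. Scrublet's automatic threshold marked 39 barcodes (0.352%), so the 240 with the highest scores (2.17%, the rate expected at 0.8% per 1000 cells) were removed. Cells were clustered with scanpy 1.11.5 (2000 variable genes without the members and related factors, scaled, 30 components, 15 neighbours, Leiden resolution 1.0). A cluster was named from at least 3 markers of 1 class, with a lead of 2, among its 50 leading genes.

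Counts were summed per library and class or cluster, filtered (filterByExpr), normalised by TMM and tested with edgeR 4.0.16 in R 4.3.3 (robust quasi-likelihood test, Benjamini-Hochberg, threshold 0.05). On simulated data for the fibroblast-like comparison with 10535 genes, recovery was 38% at 2-fold and 92% at 4-fold, and 3 of 133 calls were false. Total UMIs per library ranged from 2163166 to 16773096. The members, lists and rules were chosen with earlier results of these data known. Named related factors were the 8 largest called rises and falls whose average log2 CPM reached 3 and whose genotypes did not overlap, plus Snai2, Zeb1, Zeb2, Runx1, Msx1, Lhx2 and Sox9, and 1 further named factor is not reported here. Replicate numbers are not said to pair the libraries, so a block by number was used only as an alternative. Alternatives included DESeq2 1.42.0 and limma 3.58.1, other filters and clusterings, left-out libraries and equal weighting of clusters. Tests between clusters, within-cluster alternatives, thinned sums and the fit without cluster 31 were added after the data were seen.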

Additional observations from a re-analysis of the deposited data

Results flagged for a closer look

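The genotype effect on Osr2 differed between 2 fibroblast-like clusters by the test of the difference itself. It was 1.44 in cluster 3 (led by Fmo2, Vtn and Inmt) and -0.72 in cluster 4 (led by Thbs4 and Cilp), and the difference was -2.26 on the log2 scale (edgeR with library as a block, adjusted p = 0.0138). All 3 Ikkb_cKO libraries lay above both WT libraries in cluster 3 and below both in cluster 4. Osr2 was 1 of 8 genes called among 2373 in that test.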

How the results depend on the processing

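Of 8 tested members, 6 were called. Leaving out Ikkb_cKO library 1, 2 or 3 gave 6, 6 and 7, where edgeR called 2945 of 11787, 3038 of 11754 and 5485 of 11708 genes. Equal cluster weights gave 0 (limma, 3 at an unadjusted p under 0.05), where 313 of 10535 genes were called. Fewer members, and fewer of all genes, were called without either WT library or with both alike pairs summed, which leave a single WT sample. Of the related factors, 24 were called, from 19 to 43 with 1 Ikkb_cKO library left out, 41 with the replicate block and 37 with limma voom with quality weights. Equal cluster weights called 6 and thinned cells 14. Over all genes, 3725 were called in the main fit, 5418 with the replicate block, 5066 with voom and 2094 of 7304 with thinned cells. The replicate block called 7 members. It leaves Ikkb_cKO library 3 without a partner. Same-numbered libraries had correlations of deviations of 0.02 and -0.04, which cannot decide whether the numbers pair them. Deviations of the 2 WT libraries from their mean mirror each other, and Ikkb_cKO libraries 1 and 2 were more alike than either was to library 3.

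Twist2 ranged from -0.54 (without Ikkb_cKO library 3) to 0.54 with 1 library left out, and was -0.53 with the replicate block and -0.32 with voom. Osr2 was no longer called with thinned cells (0.26, edgeR adjusted p = 0.272) or without cluster 31 (0.43, edgeR adjusted p = 0.138), and Tbx15 without the low-count filter (edgeR adjusted p = 0.0634), a setting that moved the median of all genes from 0.05 to -0.18. The signs of the other 7 tested members kept under all alternatives run. Prrx1 ranged from 0.11 to 0.97. The cause of these changes was not tested.

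Within clusters, 2 members were called in cluster 3, from 0 to 2 with 1 library left out, 1 with the replicate block, 1 with the DESeq2 Wald test and 3 without the low-count filter. In cluster 4 none was, from 0 to 1 with 1 library left out, and 1 without the low-count filter. In cluster 7, 1 was called, and 0 with any library left out, with the replicate block, with voom or without the low-count filter. Depth limits Tcf21 (5 UMIs in WT and 1 in Ikkb_cKO fibroblast-like cells) and every class with few cells: Prrx1 in WT Schwann-like cells ranged from 0 to 57.3 CPM and in WT mural-like cells from 114 to 182 CPM over the alternatives.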
